A study of Mus musculus with 24 samples.

Results

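Basement membranes are thin sheets of extracellular matrix built on laminins, trimers of 1 alpha, 1 beta and 1 gamma chain that are held to the other matrix proteins by nidogens and heparan sulfate proteoglycans. Cells hold on to these sheets through integrins, receptors made of 1 alpha and 1 beta chain, and through dystroglycan. In the fetal testis, Sertoli cells enclose germ cells in cords that are bounded by a basement membrane, whereas pre-granulosa cells of the fetal ovary surround germ cells in looser cords whose basement membranes are completed later. The genes described here are 40 of the 32040 in the deposited tables: laminin chains, integrin chains and other components or receptors of the basement membrane, taken by name from a list and without the collagens. In the test of counts described below, 38 of the 40 passed the filter on low values; vitronectin (Vtn) and the integrin chain Itga2, with at most 41 and 14 counts in any library, did not.

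RNA was measured in gonadal supporting cells that had been sorted from mouse embryos on 4 embryonic days, E11.5 and E12.5 and then E13.5 and E15.5. The XX groups were pre-granulosa cells of female embryos of the Tg(Enh8-mCherry) line, and the XY groups were Sertoli cells of male embryos of the SOX9-IRES-GFP line, with 3 libraries in each of the 8 groups. Both kinds of cell were sorted on the fluorescence of their reporter, the labels name no treatment and no other allele, and no group is shared between the sexes. Sex, mouse line and fluorophore changed together, so their parts in an XX minus XY difference cannot be told apart. No label says that libraries came from separate litters or animals, so the p-values measure only the spread between these libraries, which may be technical.

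Library totals lay between 11275251 and 37256881 counts. Summed over 10 Sertoli genes, the XY libraries held 1588 to 10423 CPM (counts-per-million, scaled for library size) and the XX libraries 81.6 to 341.6, and over 10 pre-granulosa genes the XX libraries held 615.6 to 1829 and the XY libraries 107.8 to 504.3, in the direction of the labels. The XX E11.5 libraries stood apart from each other: their sums over 10 interstitial genes were 1053, 549.3 and 3540 CPM in replicates 1, 2 and 3, over 8 perivascular genes 304.1, 164.6 and 988.5 CPM, over 10 immune genes 325.5, 177.2 and 525.0 CPM, and over the erythroid genes 13363, 4383 and 33549 CPM. The XY E11.5 libraries held 1306, 1650 and 2184 CPM of interstitial genes. From E12.5 on, the interstitial sum was 371.7 to 747.9 CPM in XX and 105.5 to 267.3 CPM in XY. The immune sum was at most 2.40 CPM in any XY library, and 43.4 to 76.9 CPM in XX from E12.5 on. Over the same stages the erythroid sum was 315.6 to 1795 CPM in XX and 32.8 to 234.0 CPM in XY. The part of such RNA in the later differences was not tested. In XX E11.5, 14 of the 40 members (35.0%, beside 21.4% of all genes tested) had their 3 values in the order of the interstitial sums: Lama2, Lama4, Lamb2, Nid1, Nid2, Hspg2, Fn1, Itga5, Itga8, Itgav, Itga1, Itga4, Itgb1 and Itgb3. In XY E11.5 there were 12 (30.0%, beside 19.4%): Lama2, Lamc1, Lamc3, Nid1, Nid2, Npnt, Frem1, Fras1, Fn1, Itga1, Itga9 and Itgb6. The part of interstitial RNA in the E11.5 levels of these members was not tested.

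Values are given as CPM in replicates 1, 2 and 3, in that order, or as mean ± SD of these 3. CPM serve to compare 1 gene between groups, and TPM (transcripts-per-million), which take transcript length into account, to compare genes with each other. Differences are XX minus XY on the log2 scale, so that a positive value is higher in XX, and adjusted p-values come from edgeR's quasi-likelihood test with Benjamini-Hochberg adjustment over the 16190 genes tested. The threshold for a call was an adjusted p of 0.05. In these bulk libraries, fewer cells of a type and less RNA per cell cannot be told apart.

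The sexes diverged in these genes between E11.5 and E12.5, and by the count test more members were called higher in XY than in XX at each stage. At E11.5, 16 of 38 members were called, or 42.1% beside 42% of all genes tested, with 6 higher in XX (beside 21.4% of all genes) and 10 higher in XY (beside 20.6%). At E12.5 there were 30, beside 62.1% of all genes, 13 of them higher in XX (30.5%) and 17 in XY (31.5%). At E13.5 there were 32, beside 66.1%, with 14 higher in XX (32.8%) and 18 in XY (33.3%). At E15.5 there were 25, beside 69.4%, with 8 higher in XX (34.9%) and 17 in XY (34.4%). The E12.5 split was 13 and 13 in limma on log2(TPM + 1), 13 and 12 without its filter, 14 and 13 with 0.1 added in place of 1, 16 and 16 in a fit of only the 6 libraries, and 17 and 16 without the E11.5 libraries (XX first). All members tested but Itgb6 were called at 1 or more stages, beside 91.4% of all genes. The shares of members called were thus close to the background at E11.5 and E15.5, and 78.9% and 84.2% at the stages between. A difference of at least 1 log2 unit was reached by 12, 22, 27 and 21 of the called members in order of stage, beside 17.2%, 33.6%, 37.5% and 41.4% of all genes, and at E11.5 these were 6 in each direction. The median difference over the 38 members was -0.25, 0.02, -0.47 and -0.70, and over all genes tested 0.02, -0.01, 0.01 and 0.05.

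The laminin chain Lama4, the matrix proteins Sparc and Tinagl1, and the integrin chains Itgav, Itgb1 and Itgb8 were higher in XY at all 4 stages, 6 of 38 members beside 9.39% of all genes tested. No member was higher in XX at all 4 stages, beside 8.49% of all genes. The 8 members Lama1, Lama2, Lama5, Frem1, Itga8, Itga9, Itgb3 and Itgb5 were called higher in XX at 1 or more stages and higher in XY at others, beside 13.9% of all genes. From calls that held on leaving out each library in turn, 4 of the 8 remained (Lama1, Lama2, Itga8 and Itga9). Of the 8, Lama2, Frem1 and Itga8 were higher in XY at E11.5 and higher in XX later. The XX minus XY difference itself changed between stages (sex-by-stage interaction) in 34 of 38 members, or 89.5%, beside 70.1% of all genes.

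**Figure D1:**
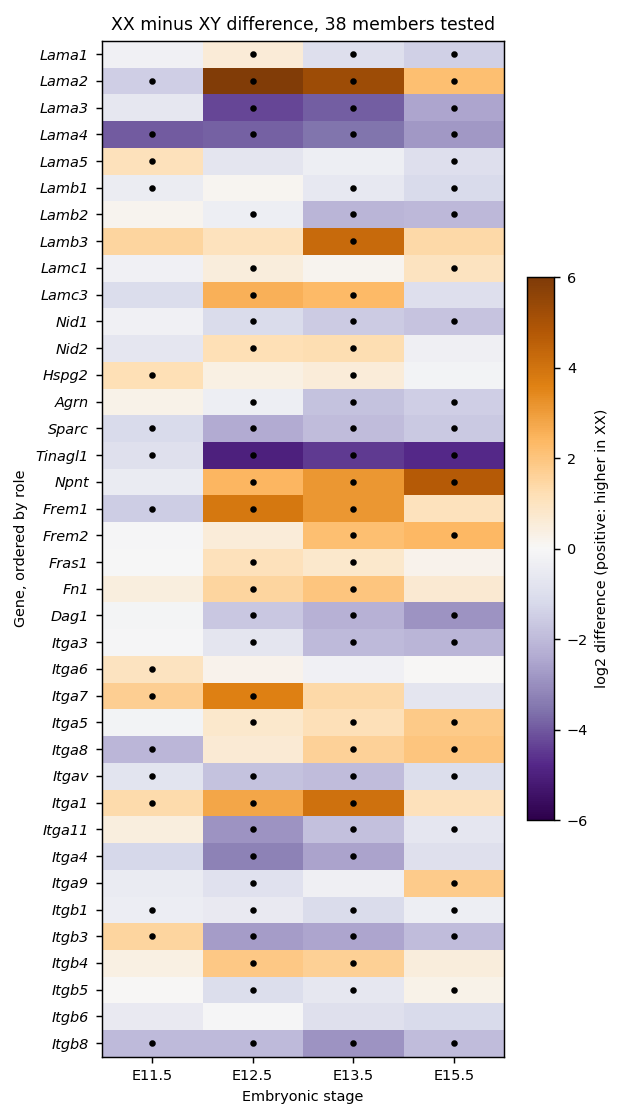
Heat map of the XX minus XY log2 difference of the 38 members tested, with members in rows grouped by role and the 4 stages in columns. Orange is higher in XX, purple is higher in XY, and a dot marks an adjusted p under 0.05. Fitted values of Lama2, Lamb3, Lamc3 and Itga1 at stages where XY had almost no counts depend on the test's prior count. The purple rows with 4 dots are Lama4, Sparc, Tinagl1, Itgav, Itgb1 and Itgb8.

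Summed over the 40 genes, the XX group means were 2485, 2590, 2447 and 2538 CPM from E11.5 to E15.5. The XY sums were 3339, 6343, 7108 and 6370 CPM. Sparc and the dystroglycan gene Dag1 made up much of the XY sum: without them it was 2045, 2804, 3062 and 2717 CPM, and the XX sum was 1652, 1725, 1473 and 1623 CPM. In all 8 groups Sparc had the highest mean TPM of the 40. In XX E11.5 its lead (247.4 ± 55.7 TPM, beside 175.5 ± 70.3 for Dag1) was within the spread between libraries. Of the 40 genes, 15 had a mean of at least 10 CPM in all 8 groups, and 8 were under 10 CPM in every group (Lamb3, Lamc3, Vtn, Itga7, Itga2, Itgb3, Itgb4 and Itgb6).

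Among the laminin alpha chains, which carry the sites that cell receptors bind, 3 of 5 were called between the sexes at E11.5 (1 higher in XX and 2 in XY), then 4 (2 and 2), 4 (1 and 3) and 5 (1 and 4, where the 4 include a Lama5 call that turned direction in TPM). These counts by role, here and below, stand beside 42%, 62.1%, 66.1% and 69.4% of all genes called in order of stage. Lama4, the alpha chain known from vessel walls and other mesenchymal basement membranes, was the main alpha chain of XY cells early on. Its XY level went from 175.0 ± 33.3 and 210.4 ± 8.29 CPM in the first stages to 140.4 ± 6.26 and lastly 64.1 ± 5.12 CPM. Its XX means lay between 9.26 and 14.4 CPM at the 4 stages. The groups did not overlap at any stage, and the difference was -3.94, SE 0.20, adjusted p 2.17e-12 at E11.5 and -2.79, SE 0.19, adjusted p 4.32e-11 at E15.5. Sums over 10 endothelial genes were 50.4 to 70.1 CPM in XX and 34.7 to 41.1 CPM in XY from E12.5 on, and at E11.5 they overlapped, with 36.0 to 69.0 CPM in XX and 33.4 to 43.4 CPM in XY. The part of endothelial RNA in Lama4 was not tested.

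Lama1, the alpha chain of the first embryonic basement membranes, rose in both sexes, in XY mainly after E12.5. In XX it was at 44.6, 44.3 and 37.7 CPM (E11.5), 107.2, 112.7 and 76.3 (E12.5), 72, 62.8 and 59.1 (E13.5), then 65.5, 68.2 and 55.2 (E15.5). In XY it was at 39.5, 59.7 and 51.3 CPM (E11.5), 80.8, 65.7 and 50.9 (E12.5), 123.7, 121.0 and 130.7 (E13.5), then 174.0, 166.1 and 164.1 (E15.5). XX CPM thus peaked at E12.5 (log2 change 1.22, SE 0.16, adjusted p 2.13e-05 from E11.5). The XX TPM from E12.5 on lay closer together, at 26.3 ± 4.35, 23.1 ± 0.904 and 22.7 ± 3.59. The XY rise from E11.5 to E12.5 (0.39, SE 0.16, adjusted p 0.0466) lost its call on leaving out any of 20 libraries. In TPM that XY step went the other way, from 14.5 ± 2.64 to 12.4 ± 1.94. The next XY step was a rise of 0.93, SE 0.16, adjusted p 4.24e-04. All 3 XY libraries of E13.5 and E15.5 were above every XX library of any stage. Lama1 was higher in XX at E12.5 (0.59, SE 0.16, adjusted p 0.00341), where the 2 groups overlapped, and higher in XY at E13.5 (-0.95, SE 0.16, adjusted p 2.71e-05) and E15.5 (-1.42, SE 0.16, adjusted p 1.25e-07). On the TPM scale the E13.5 values lay closer together, at 23.1 ± 0.904 in XX and 28.9 ± 0.688 in XY, and the E13.5 call was lost in limma fits of log2 TPM.

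Lama3, the alpha chain of epithelial laminins such as that of the skin, came on in XY between E11.5 and E12.5. XX libraries held 4.01, 0.825 and 1.30 CPM (E11.5), 2.53, 1.09 and 2.11 (E12.5), 3.11, 3.94 and 3.32 (E13.5), then 11.7, 12.1 and 8.597 (E15.5). XY libraries held 3.42, 3.59 and 2.32 CPM (E11.5), 39.6, 37.1 and 37.2 (E12.5), 54.4, 52.9 and 51.4 (E13.5), then 64.2, 57.4 and 59.8 (E15.5). The groups overlapped at E11.5 and were far apart from E12.5 on, with XX minus XY differences of -4.30, SE 0.34, adjusted p 7.60e-10 at E12.5 and -2.49, SE 0.30, adjusted p 2.57e-07 at E15.5. XX libraries rose only in the last step, from E13.5 to E15.5 (log2 change 1.62, SE 0.33, adjusted p 0.00119).

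Lama2, the alpha chain of muscle and nerve basement membranes, went to the detection floor in XY at E12.5. XX libraries held 3.42, 2.02 and 10.2 CPM (E11.5), 4.31, 4.96 and 5.27 (E12.5), 3.63, 4.32 and 4.08 (E13.5), then 3.47, 4.20 and 6.504 (E15.5). XY libraries held 9.78, 12.7 and 20.3 CPM (E11.5), 0.0934, 0.129 and 0 (E12.5), 0.111, 0.120 and 0.0715 (E13.5), then 0.694, 1.57 and 0.886 (E15.5). The XY E12.5 values stand for 2, 3 and 0 counts and the XY E13.5 values for 2, 3 and 2 counts. Lama2 was higher in XY at E11.5 (-1.47, SE 0.42, adjusted p 0.00751), where XX replicate 3 overlapped the XY range, and higher in XX at the later stages. From pooled counts, the XX to XY ratio was 64.1-fold, with a 95% interval of 27.2 to 198.8 at E12.5, and 41.4-fold, with a 95% interval of 19.7 to 104.3 at E13.5. XY E11.5 was above XY E12.5 by 190.5-fold, with a 95% interval of 81.5 to 587.5. These intervals cover counting error only, and reads without molecular identifiers are not independent molecules. XY interstitial marker sums fell over the same step, from 1306 to 2184 CPM down to 138.1 to 163.3 CPM, and in XX E11.5 Lama2 was highest in the library with the highest interstitial sum. The part of interstitial RNA in these Lama2 values was not tested.

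Lama5, the broadly expressed alpha chain of mature epithelial basement membranes, stood in the E11.5 XX libraries at 18.5 ± 9.35 CPM, which was called as higher than 8.47 ± 3.12 CPM in XY (1.12, SE 0.38, adjusted p 0.0211). That call was lost without XX E11.5 replicate 1 (log2 difference 0.66) or without XY E11.5 replicate 3 (0.88). At E15.5 the count test called it higher in XY (-0.94, SE 0.40, adjusted p 0.0453), a call lost on leaving out any of 11 libraries, while the deposited TPM put XX above XY, at 6.23 ± 1.57 and 4.41 ± 2.15. The direction at E15.5 therefore differed between the deposited counts and the deposited TPM, whose mean ratios of XX to XY were 0.532 and 1.41.

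Taken as a share of the summed TPM of the 5 alpha chains, XX went from a mix of Lama5 (43.3% ± 8.45, SD, n = 3) and Lama1 (34.1% ± 4.49) at E11.5 to mostly Lama1, with 65.5%, 63.3% and 60.7% at the later stages. The E11.5 lead of Lama5 was present in the deposited TPM only. Without regard to transcript length, XX E11.5 held 42.2 CPM of Lama1 and 18.5 CPM of Lama5. CPM per TPM in these libraries was 3.89 to 5.48 for Lama1 and 1.25 to 1.71 for Lama5. The source of that gap was not tested. XY began with Lama4 at 69.4% ± 5.51 and 70.1% ± 1.74 at E11.5 and E12.5. Lama4 then made up 48.9% and 27.2% at E13.5 and E15.5, while Lama1 made up 32.3% and 48.8%. Lama3 took 0.892%, 9.52%, 14.0% and 17.9% of the XY sum in order of stage, and Lama2 at most 7.30% in any group. The sum itself was 27.4 to 40.1 TPM in XX and 79.1 to 93.3 TPM in XY (group means).

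**Figure D2:**
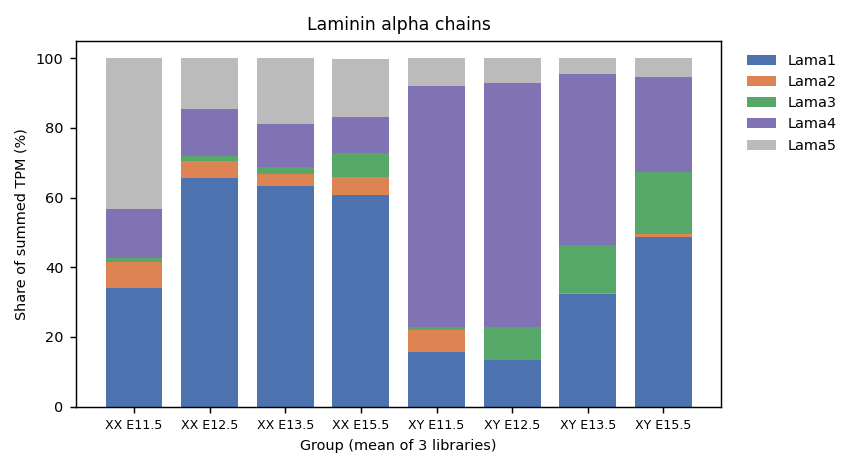
Stacked bars of the share of each laminin alpha chain in the summed TPM of Lama1 to Lama5 (y axis, percent), for the 8 groups (x axis), as means of 3 libraries. Lama1 is the largest share in XX from E12.5 on, and in XY the Lama4 share goes from 69.4% at E11.5 to 27.2% at E15.5 as those of Lama1 and Lama3 widen.

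Of the 5 laminin beta and gamma chains, 1, 3, 4 and 3 were called in order of stage, of which 0, 2, 2 and 1 were higher in XX. Lamb2, the beta chain of kidney and synaptic basement membranes, was the one with the clearest split. XX libraries held 73.0, 64.3 and 83.3 CPM (E11.5), 108.5, 122.4 and 105.8 (E12.5), 37.0, 32.0 and 30.6 (E13.5), then 35.2, 45.7 and 30.4 (E15.5). XY libraries held 59.5, 72.8 and 62.8 CPM (E11.5), 149.3, 151.9 and 135.0 (E12.5), 153.2, 128.1 and 150.8 (E13.5), then 151.2, 151.7 and 153.0 (E15.5). Both sexes rose from E11.5 to E12.5, after which all XX libraries fell to 45.7 CPM or less and all XY libraries stayed at 128.1 CPM or more. The difference was -2.12, SE 0.13, adjusted p 1.16e-11 at E13.5 and -2.03, SE 0.13, adjusted p 1.80e-11 at E15.5. A smaller difference at E12.5 (-0.37, SE 0.13, adjusted p 0.0136) lost its call when any of 4 of the 6 E12.5 libraries was left out.

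Lamb1, the beta chain of the embryonic laminins, had the highest mean TPM of the laminin chains in every group but XY E12.5, where Lama4 was at 65.4 ± 3.38 and Lamb1 at 62.0 ± 8.43 TPM, a gap smaller than the spread between libraries. The lead of Lamb1 was also within that spread in XX E15.5, over Lamc1 at 33.6 ± 2.56 TPM (Lamb1 33.9 ± 7.58), and in XY E11.5, over Lama4 at 64.5 ± 10.2 TPM (Lamb1 67.6 ± 5.45). XX libraries held 163.2, 151.3 and 161.7 CPM (E11.5), 282.8, 262.0 and 225.0 (E12.5), 197.5, 159.9 and 168.9 (E13.5), then 134.7, 149.5 and 105.2 (E15.5). XY libraries held 209.1, 230.1 and 216.2 CPM (E11.5), 269.0, 236.1 and 215.5 (E12.5), 252.4, 256.6 and 277.6 (E13.5), then 286.2, 283.0 and 280.7 (E15.5). XX means rose to E12.5 and then fell at each step, whereas the XY stage means stayed between 218.5 and 283.3 CPM. The last XX fall (log2 change -0.435) lost its call without XX E13.5 replicate 1 or XX E15.5 replicate 3. XX was lower at E11.5 (-0.46, SE 0.11, adjusted p 0.00263), not called at E12.5 (0.10, SE 0.11, adjusted p 0.483), and lower again at E13.5 (-0.58, SE 0.11, adjusted p 1.36e-04) and E15.5 (-1.13, SE 0.12, adjusted p 2.03e-08).

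Lamc1, the gamma chain found in most laminin trimers, was higher in XX at E15.5, where Lamb1 and Lamb2 were higher in XY. XX libraries held 53.8, 59.0 and 84.3 CPM (E11.5), 69.9, 67.1 and 78.7 (E12.5), 72.8, 71.5 and 67.1 (E13.5), then 83.6, 74.9 and 68.9 (E15.5). XY libraries held 69.6, 80.7 and 83.5 CPM (E11.5), 53.3, 48.8 and 50.6 (E12.5), 48.9, 63.6 and 76.7 (E13.5), then 38.9, 39.6 and 34.4 (E15.5). No XX step was called, and XY fell from E11.5 to E12.5 (log2 change -0.62, SE 0.15, adjusted p 0.00157) and from E13.5 to E15.5 (-0.75, SE 0.15, adjusted p 0.00106). Lamc1 was higher in XX, without overlap, at E12.5 (0.50, SE 0.15, adjusted p 0.00632) and E15.5 (1.01, SE 0.15, adjusted p 4.91e-06). Lamb3 and Lamc3, chains of other laminin trimers, had group means of at most 3.21 and 1.89 CPM. At E13.5, XX was above XY by 21.7-fold, with a 95% interval of 5.52 to 187.1 for Lamb3, and by 5.25-fold, with a 95% interval of 1.67 to 21.7 for Lamc3, whose call was lost without XX E13.5 replicate 3 or XY E13.5 replicate 1.

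**Figure D3:**
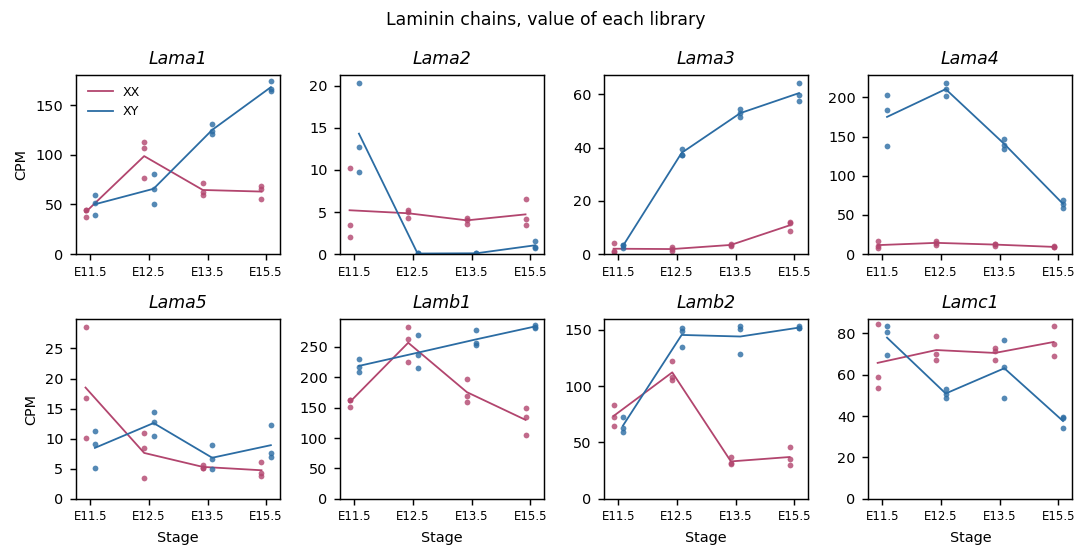
CPM of 8 laminin chains (y axes, each with its own scale) against embryonic day (x axes), with XX and XY libraries as points and group means joined by lines. Lama4 lies higher in XY at all 4 stages, Lamb2 and Lama1 lie well above XX in XY from E13.5 on, and Lama3 rises in XY at E12.5.

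The 6 linkers, proteoglycans and matricellular proteins had 3, 5, 6 and 4 members called in order of stage, of which 1, 1, 2 and 0 were higher in XX. Tinagl1, a secreted cathepsin-like protein that binds laminin and fibronectin and lacks protease activity, had the smallest adjusted interaction p of all 38 members, at 2.35e-14. XX libraries held 20.2, 21.9 and 22.6 CPM (E11.5), 15.6, 13.55 and 15.3 (E12.5), 20.2, 19.0 and 20.2 (E13.5), then 12.8, 12.7 and 13.45 (E15.5). XY libraries held 39.2, 49.5 and 33.9 CPM (E11.5), 460.2, 486.6 and 490.3 (E12.5), 443.1, 440.7 and 433.1 (E13.5), then 342.7, 359.5 and 367.6 (E15.5). XY was already above XX in every library at E11.5 (-0.92, SE 0.10, adjusted p 2.72e-07). In the step to E12.5, XY rose (log2 change 3.55, SE 0.11, adjusted p 3.03e-16) while XX fell (-0.54, SE 0.10, adjusted p 4.98e-04). The XX minus XY difference at E12.5 was -5.01, SE 0.11, adjusted p 3.20e-18, and the XY libraries of the 3 later stages all held at least 342.7 CPM, against at most 22.6 CPM in any XX library. Over that step the summed Sertoli genes in XY went from 1588 to 2795 CPM up to 9113 to 9690 CPM and the interstitial sums from 1306 to 2184 CPM down to 138.1 to 163.3 CPM, and their part in the rise of Tinagl1 was not tested.

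Promoter sequences are shown for 4 members with large XX and XY differences, Tinagl1 here and Frem1, Npnt and Itga8 where they are described, so that a reader can see the DNA in front of the start site. Each is the 250 bases before the RefSeq start site (GRCm38.p6, the assembly of mm10, the build named in the submitters' processing notes), read 5′ to 3′ on the gene's strand, in lower case, with capitals for short motifs searched on both strands. RefSeq promoters were at hand for 28 of the 40 members, 36 promoters in all. Their median GC content was 60.8%, beside 52.4% for all 32851 promoters. The SOX motif searched was AACAAT, which 9.4% of all promoters and 2 of the 36 held. For GATA factors it was AGATAA, in 10% of all and 0 of the 36. For NR5A1 it was AAGGTCA, in 4.1% of all and 1 of the 36. For TCF and LEF factors it was ATCAAAG, in 3.2% of all and 0 of the 36. For FOX factors it was GTAAACA, again in 3.2% of all and 0 of the 36. For SP and KLF factors it was GGGCGG, in 32.7% of all and 16 of the 36. A match is a description of the letters and not a binding site, and these RNA data do not test it. Where 2 start sites were listed, the first is shown, and which of them these cells use was not tested. The Tinagl1 promoter, the first of 2 listed for this gene, lies at chr4:130175123-130175372 on the minus strand, has a GC content of 60.8% and holds none of these motifs.
Tinagl1: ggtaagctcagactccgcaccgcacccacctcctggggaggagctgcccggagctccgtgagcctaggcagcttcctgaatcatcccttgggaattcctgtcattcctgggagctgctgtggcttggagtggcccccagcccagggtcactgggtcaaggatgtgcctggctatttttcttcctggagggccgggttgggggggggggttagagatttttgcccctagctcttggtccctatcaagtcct

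Sparc, a calcium-binding matricellular glycoprotein that binds collagen IV, had the highest mean TPM of the members in every group, in XX E11.5 within the spread between libraries. XX libraries held 247.1, 351.5 and 408.0 CPM (E11.5), 391.6, 379.6 and 376.7 (E12.5), 601.0, 655.9 and 645.6 (E13.5), then 677.0, 644.6 and 824.7 (E15.5). XY libraries held 795.3, 754.4 and 720.3 CPM (E11.5), 1834, 2020 and 2145 (E12.5), 2617, 2485 and 2264 (E13.5), then 2093, 2203 and 2307 (E15.5). The groups did not overlap at any stage, and the difference was widest at E12.5 (-2.39, SE 0.13, adjusted p 2.26e-12). By the count test, XY rose from E11.5 to E12.5 (log2 change 1.40, SE 0.13, adjusted p 1.31e-08), and XX rose 1 step later, from E12.5 to E13.5 (0.73, SE 0.13, adjusted p 2.36e-04). The XX TPM went up at each step, at 247.4 ± 55.7, 339.5 ± 16.1, 422.5 ± 14.6 and 479.7 ± 51.3. That the XX rise came 1 step later than the XY rise was thus seen in the count test only. The TPM rose over that step as well as before it.

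Agrn, the heparan sulfate proteoglycan agrin, which joins laminins to dystroglycan, parted after E12.5. XX libraries held 55.6, 43.0 and 54.5 CPM (E11.5), 54.7, 65.0 and 42.3 (E12.5), 31.7, 28.4 and 25.1 (E13.5), then 34.4, 32.3 and 27.7 (E15.5). XY libraries held 39.5, 48.8 and 38.02 CPM (E11.5), 69.0, 70.9 and 64.8 (E12.5), 99.6, 87.6 and 112.6 (E13.5), then 92.6, 80.8 and 87.3 (E15.5). XX fell from E12.5 to E13.5 (log2 change -0.93, SE 0.15, adjusted p 9.48e-05) in the step in which XY rose (0.55, SE 0.14, adjusted p 0.0107, a call lost without XY E13.5 replicate 3). The difference was -1.81, SE 0.15, adjusted p 8.92e-10 at E13.5 and -1.47, SE 0.15, adjusted p 1.62e-08 at E15.5, with no overlap. The E12.5 difference (-0.34, SE 0.14, adjusted p 0.0455) rested on overlapping groups and was small in TPM (25.5 ± 2.04 in XX and 25.9 ± 0.717 in XY). It lost its call in a fit of only the 6 libraries compared (-0.28). The call was also lost on leaving out any of 19 libraries (-0.14 without XX E12.5 replicate 3).

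The nidogens, which link laminin to collagen IV, took opposite courses. Nid1 rose in XY from 74.0 ± 9.72 to 151.3 ± 17.0 CPM in the first step and then stood at 221.6 ± 19.7 and 182.7 ± 0.867 CPM, and its XX means lay between 54.6 and 73.7 CPM. It was higher in XY without overlap from E12.5 on, with a difference of -1.74, SE 0.20, adjusted p 1.26e-07 at E15.5. Nid2 fell in XY from 53.3 ± 17.4 to 13.4 ± 0.242 CPM between E11.5 and E12.5 (log2 change -1.997, SE 0.35, adjusted p 7.20e-05), against 30.5 ± 11.2 CPM in XX at E12.5. At E11.5 Nid2 was at 22.6, 18.8 and 60.0 CPM in XX and 35.6, 53.9 and 70.3 CPM in XY, in the order of the interstitial sums of both sexes, which fell in XY over the same step, and their part in the fall was not tested. Nid2 was higher in XX at E12.5 (1.19, SE 0.34, adjusted p 0.00518) and at E13.5 (1.23, SE 0.35, adjusted p 0.00461). Hspg2, the proteoglycan perlecan, was higher in XX at E11.5 (1.19, SE 0.18, adjusted p 1.50e-05), at 23.9 ± 5.03 and 10.5 ± 2.44 CPM. Its ratio of XX to XY at E15.5 was 0.895 in CPM and 1.54 in TPM, and at E13.5 it was 1.46 and 2.33.

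The Fraser complex proteins Fras1, Frem1 and Frem2 form an anchoring assembly at epithelial basement membranes, and Npnt (nephronectin) is a basement membrane ligand of integrin alpha 8 beta 1. Of these 4 genes, 1 was called at E11.5, higher in XY, and 3, 4 and 2 at the later stages, all higher in XX. Npnt ended with the largest difference of the 4. XX libraries held 5.61, 12.9 and 5.51 CPM (E11.5), 20.7, 22.5 and 22.9 (E12.5), 16.3, 17.4 and 18.1 (E13.5), then 22.7, 20.3 and 18.7 (E15.5). XY libraries held 9.86, 10.6 and 13.2 CPM (E11.5), 3.69, 4.57 and 4.16 (E12.5), 2.101, 1.55 and 2.22 (E13.5), then 0.911, 0.842 and 0.570 (E15.5). From E11.5 to E12.5, XX rose (log2 change 1.45, SE 0.23, adjusted p 1.16e-04) and XY fell (-1.44, SE 0.24, adjusted p 3.45e-05), and XY fell again at both later steps. The difference was 2.41, SE 0.24, adjusted p 2.56e-08 at E12.5 and 4.69, SE 0.30, adjusted p 1.12e-11 at E15.5. The Npnt promoter at chr3:132950292-132950541 (minus strand, the first of 2 listed) has a GC content of 74.0% and holds GGGCGG, in capitals, on the gene's strand 19 bases before the start and on the other strand 88 and 77 bases before it.
Npnt: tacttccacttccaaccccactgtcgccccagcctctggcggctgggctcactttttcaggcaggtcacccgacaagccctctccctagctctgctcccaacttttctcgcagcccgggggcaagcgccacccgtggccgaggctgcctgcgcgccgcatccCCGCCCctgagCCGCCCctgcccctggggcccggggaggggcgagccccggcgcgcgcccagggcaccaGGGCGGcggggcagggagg

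Frem1 was high in XY at E11.5 only. XX libraries held 4.38, 5.64 and 17.6 CPM (E11.5), 10.5, 12.2 and 4.53 (E12.5), 4.37, 4.73 and 6.04 (E13.5), then 5.82, 6.13 and 5.39 (E15.5). XY libraries held 19.0, 23 and 37.0 CPM (E11.5), 0.280, 0.518 and 1.05 (E12.5), 0.332, 0.279 and 1.04 (E13.5), then 1.56, 3.82 and 2.97 (E15.5). Every XY E11.5 library was above every XX E11.5 library (-1.53, SE 0.47, adjusted p 0.0133), and every XX library was above every XY library at E12.5 (3.87, SE 0.59, adjusted p 1.13e-05) and E13.5 (3.12, SE 0.60, adjusted p 1.38e-04). The E11.5 call was lost without XX replicate 1 or 2 or XY replicate 3, with log2 differences of -1.20, -1.28 and -1.19. At E11.5, Frem1 was highest in replicate 3 of each sex, which also had the highest interstitial sums (3540 CPM in XX and 2184 CPM in XY), and the part of interstitial RNA in it was not tested. The Frem1 promoter at chr4:83021103-83021352 (minus strand, the first of 2 listed) has a GC content of 45.6%. It holds the NR5A1 letters AAGGTCA, in capitals, 140 bases before the start on the gene's strand.
Frem1: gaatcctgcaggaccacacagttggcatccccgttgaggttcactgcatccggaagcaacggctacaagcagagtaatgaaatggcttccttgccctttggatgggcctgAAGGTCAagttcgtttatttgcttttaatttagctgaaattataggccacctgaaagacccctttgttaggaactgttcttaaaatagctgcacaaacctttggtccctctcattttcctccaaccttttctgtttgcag

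Frem2 parted from E13.5 on. XX libraries held 14.9, 5.73 and 3.95 CPM (E11.5), 15.9, 13.3 and 8.92 (E12.5), 19.4, 23.8 and 23.3 (E13.5), then 23.01, 20.5 and 20.6 (E15.5). XY libraries held 8.80, 7.23 and 9.74 CPM (E11.5), 7.42, 10.4 and 8.86 (E12.5), 4.53, 4.66 and 5.22 (E13.5), then 4.34, 4.27 and 3.61 (E15.5). The groups overlapped at E11.5 and E12.5, and XX was higher at E13.5 (2.20, SE 0.31, adjusted p 3.08e-06) and E15.5 (2.39, SE 0.32, adjusted p 1.21e-06). Fras1 was higher in XX at E12.5 (1.08, SE 0.19, adjusted p 6.49e-05) and E13.5 (0.75, SE 0.19, adjusted p 0.00183), with 23.1 ± 1.64 and 11.0 ± 2.95 CPM at E12.5, and was not called at E15.5, with 26.3 ± 2.78 and 22.9 ± 1.03 CPM. The E15.5 TPM of Fras1 lay the other way, at 3.27 ± 0.429 in XX and 4.12 ± 0.148 in XY. Sums over the surface epithelium genes went from 212.6 to 436.0 CPM at E11.5 to 1062 to 1127 CPM at E15.5 in XX and were 367.6 to 452.6 CPM in XY from E12.5 on, and their part in the Fraser gene differences was not tested.

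**Figure D4:**
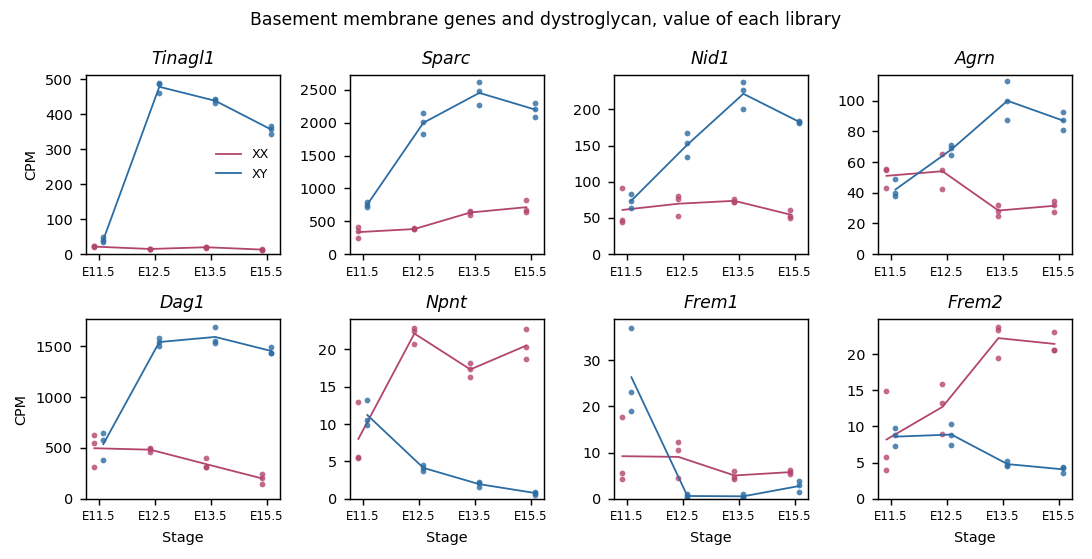
CPM of Tinagl1, Sparc, Nid1, Agrn, Dag1, Npnt, Frem1 and Frem2 (y axes, each with its own scale) against embryonic day (x axes), with XX and XY libraries as points and group means joined by lines. Tinagl1, Sparc, Nid1 and Dag1 rise in the first XY step and stay above XX, and Npnt and Frem2 end higher in XX.

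Dag1 encodes dystroglycan, the non-integrin receptor for laminin, agrin and perlecan. XX libraries held 626.7, 314.0 and 550.2 CPM (E11.5), 487.4, 499.7 and 460.6 (E12.5), 396.3, 315.1 and 310.4 (E13.5), then 203.3, 248.2 and 147.6 (E15.5). XY libraries held 578.5, 649.1 and 384.6 CPM (E11.5), 1577, 1538 and 1505 (E12.5), 1535, 1548 and 1687 (E13.5), then 1488, 1432 and 1437 (E15.5). The groups overlapped at E11.5 (-0.11, SE 0.20, adjusted p 0.687) and were apart at each later stage, with a difference of -1.67, SE 0.21, adjusted p 6.58e-07 at E12.5 that reached -2.86, SE 0.22, adjusted p 3.04e-10 at E15.5. XY rose in the step to E12.5 (log2 change 1.52, SE 0.21, adjusted p 3.57e-06), and XX fell from E13.5 to E15.5 (-0.77, SE 0.21, adjusted p 0.00917), a call lost without XX E13.5 replicate 1 or XX E15.5 replicate 3.

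Fn1, fibronectin, a ligand of integrins alpha 5 beta 1 and alpha V and a major product of mesenchymal cells, fell in both sexes after E11.5. XX libraries held 195.9, 22.6 and 470.0 CPM (E11.5), 19.0, 20.4 and 12.1 (E12.5), 10, 9.67 and 11.9 (E13.5), then 12.2, 15.53 and 14.1 (E15.5). XY libraries held 100.5, 123.1 and 286.6 CPM (E11.5), 5.56, 6.04 and 6.31 (E12.5), 2.82, 3.07 and 2.14 (E13.5), then 8.20, 11.3 and 6.83 (E15.5). The 3 XX E11.5 libraries ranged over 22.6 to 470.0 CPM in the order of their interstitial sums (549.3, 1053 and 3540 CPM), and XY replicate 3 was highest in both as well. The step to E12.5 was -3.74, SE 0.65, adjusted p 2.87e-04 in XX and -4.83, SE 0.70, adjusted p 1.05e-05 in XY. Over that step the interstitial sums fell in XY without overlap. In XX the sum of E11.5 replicate 2 (549.3 CPM) lay within the E12.5 range of 371.7 to 674.5 CPM. Fn1 in that library was at 22.6 CPM, beside 12.1 to 20.4 CPM in XX E12.5. The part of interstitial RNA in the fall of Fn1 was not tested. Fn1 was called higher in XX at E12.5 (1.52, SE 0.65, adjusted p 0.0486) and E13.5 (1.97, SE 0.72, adjusted p 0.0221), but the E12.5 call was lost on leaving out any of 10 libraries and the E13.5 call without XY E13.5 replicate 3. Vtn had at most 0.795 CPM in any group mean, and 0 counts in all libraries of XX E12.5, XY E13.5 and XY E15.5.

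Of the 3 laminin-binding integrin alpha chains, 2, 2, 1 and 1 were called in order of stage, of which 2, 1, 0 and 0 were higher in XX. Itga6 had the highest mean TPM of the integrin alpha chains in every group. XX libraries held 179.0, 268.5 and 149.3 CPM (E11.5), 334.8, 274.5 and 288.3 (E12.5), 441.4, 415.7 and 399.3 (E13.5), then 560.0, 512.9 and 501.3 (E15.5). XY libraries held 104.9, 105.3 and 82.6 CPM (E11.5), 248.7, 261.1 and 264.4 (E12.5), 472.1, 510.9 and 500.7 (E13.5), then 537.8, 511.4 and 502.8 (E15.5). Both sexes rose from E11.5 to E13.5. XX was higher at E11.5 (1.03, SE 0.14, adjusted p 7.92e-06), and no later difference was called: at E12.5 it was 0.21, SE 0.14, adjusted p 0.199, at E13.5 -0.24, SE 0.14, adjusted p 0.142 and at E15.5 0.02, SE 0.14, adjusted p 0.906. As a share of the summed TPM of the integrin alpha chains, Itga6 went from 55.6% ± 10.7 at E11.5 to 81.2% ± 1.42 at E15.5 in XX and from 31.7% ± 2.36 to 69.3% ± 0.306 in XY.

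Itga3, the partner of beta 1 that prefers laminins with alpha 3 or alpha 5 chains, parted between the sexes at E12.5. XX libraries held 20.2, 15.9 and 15.6 CPM (E11.5), 24.6, 27.5 and 23.9 (E12.5), 14.4, 11.7 and 11.7 (E13.5), then 14.6, 19.0 and 11.0 (E15.5). XY libraries held 17.4, 21.9 and 14.3 CPM (E11.5), 51.1, 42.3 and 34.3 (E12.5), 48.2, 48.1 and 54.4 (E13.5), then 65.5, 58.6 and 67.0 (E15.5). The E11.5 groups overlapped, and XY was higher at E12.5 (-0.75, SE 0.18, adjusted p 9.53e-04), E13.5 (-1.999, SE 0.19, adjusted p 6.29e-09) and E15.5 (-2.11, SE 0.19, adjusted p 2.13e-09). From E12.5 to E13.5, XX fell (log2 change -1.01, SE 0.18, adjusted p 3.23e-04). Itga7, the laminin receptor chain of muscle, was low: 5.33 ± 2.21 CPM in XX and 1.64 ± 0.439 in XY at E11.5, higher in XX at that stage (1.69, SE 0.47, adjusted p 0.00676) and at E12.5 (3.61, SE 0.59, adjusted p 1.78e-05), and under 1 CPM in both sexes at E13.5 and E15.5.

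Of the 3 alpha chains that bind the RGD sequence of fibronectin, vitronectin and nephronectin, 2, 2, 3 and 3 were called in order of stage, of which 0, 1, 2 and 2 were higher in XX. Itgav, the alpha V chain, which also takes part in the activation of latent TGF-beta, was higher in XY throughout. XX libraries held 61.4, 41.8 and 64.3 CPM (E11.5), 58.0, 56.4 and 48.9 (E12.5), 40.2, 38.9 and 41.9 (E13.5), then 50.01, 48.5 and 55.4 (E15.5). XY libraries held 100.5, 95.9 and 88.5 CPM (E11.5), 174.0, 195.7 and 195.0 (E12.5), 159.1, 152.3 and 158.7 (E13.5), then 109.7, 107.3 and 95.8 (E15.5). The groups did not overlap at any stage, and the difference was -0.77, SE 0.12, adjusted p 2.29e-05 at E11.5, -1.96, SE 0.12, adjusted p 1.01e-11 at E13.5 and -1.02, SE 0.12, adjusted p 1.37e-07 at E15.5.

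Itga8, the alpha chain of the nephronectin receptor, had its highest level in XY at E11.5 and fell from there. XX libraries held 23.9, 17.0 and 60.7 CPM (E11.5), 25.5, 24.7 and 12.1 (E12.5), 11.6, 16.0 and 25.4 (E13.5), then 6.25, 12.9 and 14.2 (E15.5). XY libraries held 126.2, 123.0 and 175.4 CPM (E11.5), 15.55, 12.6 and 12.2 (E12.5), 5.81, 6.10 and 5.50 (E13.5), then 2.52, 3.14 and 2.78 (E15.5). XY fell in the step to E12.5 (log2 change -3.39, SE 0.40, adjusted p 6.12e-07), so that the difference went from -2.07, SE 0.38, adjusted p 1.91e-04 at E11.5 to 2.01, SE 0.45, adjusted p 4.74e-04 at E15.5. In XX the F test over the 4 stages was called (adjusted p 0.00866), with no single step called. XY interstitial sums fell in the same step as Itga8, and XX E11.5 replicate 3, the library with the highest interstitial sum, had the highest XX value, but their part in Itga8 was not tested. In XY, both the receptor chain Itga8 and its ligand Npnt were called as lower at E12.5 than at E11.5, while in XX Npnt rose and the change of Itga8 was -0.70, SE 0.37, adjusted p 0.158. The Itga8 promoter at chr2:12301945-12302194 (minus strand) has a GC content of 56.4% and holds the SOX letters AACAAT, in capitals, 206 bases before the start on the gene's strand.
Itga8: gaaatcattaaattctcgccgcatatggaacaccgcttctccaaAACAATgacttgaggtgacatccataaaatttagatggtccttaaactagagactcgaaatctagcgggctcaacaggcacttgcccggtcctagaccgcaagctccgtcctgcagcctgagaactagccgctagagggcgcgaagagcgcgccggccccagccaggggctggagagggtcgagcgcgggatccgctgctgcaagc

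Itga5, the alpha chain of the main fibronectin receptor, fell step by step in XY. XX libraries held 32.8, 24.8 and 49.9 CPM (E11.5), 38.6, 35.9 and 27.4 (E12.5), 29.1, 25.5 and 21.5 (E13.5), then 19.9, 27.4 and 12.3 (E15.5). XY libraries held 37.6, 44.4 and 38.6 CPM (E11.5), 19.6, 21.4 and 19.3 (E12.5), 11.4, 10.6 and 11.8 (E13.5), then 5.90, 4.88 and 5.57 (E15.5). All 3 XY steps were called, with log2 changes of -1.003, -0.83 and -1.05 and adjusted p of 8.90e-04, 0.0174 and 0.00410. The middle call was lost without XY E12.5 replicate 2, XY E13.5 replicate 2 or XY E13.5 replicate 3. No XX step was called, and XX was higher from E12.5 (0.76, SE 0.23, adjusted p 0.00648) to E15.5 (1.85, SE 0.25, adjusted p 1.16e-06).

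Of the 2 collagen-binding chains tested, 1, 2, 2 and 1 were called in order of stage, of which 1, 1, 1 and 0 were higher in XX. Itga11, a receptor chain for fibrillar collagens known mainly from mesenchymal cells, made a short peak in XY. XX libraries held 4.97, 9.72 and 5.06 CPM (E11.5), 12.55, 11.0 and 10.5 (E12.5), 10.5, 11.2 and 13.1 (E13.5), then 6.34, 7.66 and 7.31 (E15.5). XY libraries held 4.27, 5.83 and 4.70 CPM (E11.5), 81.1, 93.1 and 79.1 (E12.5), 39.7, 41.4 and 42.0 (E13.5), then 11.1, 9.94 and 12.8 (E15.5). XY rose from E11.5 to E12.5 (log2 change 4.10, SE 0.20, adjusted p 9.20e-13) and fell at both later steps, with log2 changes of -1.04, SE 0.18, adjusted p 3.00e-04 and then -1.86, SE 0.18, adjusted p 4.33e-07. The XX minus XY difference was -2.89, SE 0.19, adjusted p 2.70e-11 at E12.5 and -0.66, SE 0.19, adjusted p 0.00456 at E15.5. The E15.5 call was lost without XY E15.5 replicate 3 (-0.49). Interstitial marker sums in XY fell over the step in which Itga11 rose, and their part in its levels was not tested. Itga1, a receptor chain for collagen IV, was at 8.98, 2.57 and 24.6 CPM in XX and 3.29, 3.95 and 6.92 CPM in XY at E11.5, again highest in XX replicate 3. Its E11.5 call (1.34, SE 0.49, adjusted p 0.0309) was lost without that library, where the difference was 0.27. At E13.5 XX was above XY by 17.3-fold, with a 95% interval of 7.57 to 48.6, on 3, 1 and 2 counts in the XY libraries. Itga2, the other collagen receptor chain listed, did not pass the filter, with group means of at most 0.202 CPM.

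Itga4 and Itga9, related alpha chains that bind fibronectin, VCAM1 or other ligands, took different courses. Itga9 in XX libraries held 7.91, 8.21 and 19.2 CPM (E11.5), 8.86, 6.86 and 5.89 (E12.5), 10.1, 12.54 and 11.3 (E13.5), then 21.9, 19.9 and 21.1 (E15.5). Itga9 in XY libraries held 11.2, 16.8 and 20.5 CPM (E11.5), 13.2, 12.2 and 13.9 (E12.5), 13.8, 13.6 and 15.0 (E13.5), then 6.86, 5.50 and 5.51 (E15.5). From E13.5 to E15.5, XX rose (log2 change 0.88, SE 0.26, adjusted p 0.0154, a call lost without XX E13.5 replicate 1) and XY fell (-1.24, SE 0.26, adjusted p 0.00165), which took the difference from -0.86, SE 0.26, adjusted p 0.00657 at E12.5 to 1.81, SE 0.27, adjusted p 3.73e-06 at E15.5. Itga4 in XX libraries held 9.78, 0.871 and 15.6 CPM (E11.5), 0.816, 1.18 and 2.42 (E12.5), 0.667, 0.955 and 0.529 (E13.5), then 1.13, 0.533 and 0.846 (E15.5). Itga4 in XY libraries held 23.5, 22.7 and 16.0 CPM (E11.5), 15.55, 12.6 and 14.2 (E12.5), 4.04, 5.14 and 4.04 (E13.5), then 1.52, 1.68 and 1.46 (E15.5). XY was higher at E12.5 (-3.27, SE 0.58, adjusted p 5.94e-05) and E13.5 (-2.55, SE 0.65, adjusted p 0.00184), and the E11.5 difference (-1.26, SE 0.51, adjusted p 0.0530) was not called although no library overlapped, nor was that at E15.5 (-0.91, SE 0.70, adjusted p 0.253). In XX E11.5 both chains were highest in replicate 3, the library with the most interstitial, immune and erythroid RNA, and Itga4 is known from blood cells. The part of these cells was not tested.

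Of the 6 beta chains, 3, 5, 5 and 4 were called in order of stage, of which 1 at each stage was higher in XX. Itgb1, the partner of most alpha chains listed, made up between 69.6% and 83.6% of the summed TPM of the beta chains (group means). XX libraries held 346.2, 286.9 and 412.4 CPM (E11.5), 383.4, 365.7 and 356.5 (E12.5), 221.8, 298.0 and 279.9 (E13.5), then 348.4, 365.0 and 374.8 (E15.5). XY libraries held 453.8, 465.5 and 464.2 CPM (E11.5), 453.1, 531.8 and 599.2 (E12.5), 576.2, 569.9 and 569.6 (E13.5), then 518.0, 445.0 and 435.3 (E15.5). It was higher in XY at each stage, without overlap, with differences of -0.40, SE 0.12, adjusted p 0.0101 at E11.5, -1.10, SE 0.12, adjusted p 8.32e-08 at E13.5 and -0.36, SE 0.12, adjusted p 0.0112 at E15.5. The E11.5 call was lost without XX E11.5 replicate 2 and the E15.5 call without XX replicate 2 or XY replicate 1 of that stage.

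Itgb8, a beta chain that pairs with alpha V and activates latent TGF-beta, was higher in XY at every stage. XX libraries held 2.67, 2.71 and 2.46 CPM (E11.5), 4.20, 5.36 and 6.33 (E12.5), 3.33, 4.44 and 4.38 (E13.5), then 3.73, 5.80 and 6.10 (E15.5). XY libraries held 12.4, 10.2 and 9.03 CPM (E11.5), 19.4, 22.6 and 20.8 (E12.5), 33.2, 29.8 and 28.5 (E13.5), then 22.2, 20.3 and 17.8 (E15.5). The difference was -2.01, SE 0.19, adjusted p 3.24e-08 at E11.5, -2.90, SE 0.19, adjusted p 1.61e-11 at E13.5 and -1.93, SE 0.18, adjusted p 5.06e-09 at E15.5. Both sexes rose in the step to E12.5, by 1.01 in XX and 0.99 in XY.

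Itgb5, another partner of alpha V, had no XX step called and rose and fell in XY. XX libraries held 49.0, 50.5 and 60.9 CPM (E11.5), 47.6, 41.1 and 48.2 (E12.5), 50.1, 53.1 and 49.2 (E13.5), then 59.4, 48.5 and 52.5 (E15.5). XY libraries held 52.1, 58.5 and 49.2 CPM (E11.5), 90.2, 91.0 and 97.4 (E12.5), 76.0, 78.7 and 81.6 (E13.5), then 44.3, 45.4 and 44.6 (E15.5). The difference was 0.00, SE 0.10, adjusted p 0.976 at E11.5, -1.03, SE 0.10, adjusted p 8.64e-09 at E12.5 and -0.63, SE 0.10, adjusted p 6.91e-06 at E13.5. At E15.5 Itgb5 was higher in XX by 0.26, SE 0.10, adjusted p 0.0234, a small difference whose call was lost without XX replicate 1 or XY replicate 1 of that stage. F tests over the stages gave adjusted p of 0.111 in XX and 9.07e-09 in XY.

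The remaining beta chains were low. Itgb3, the beta chain of platelets and a partner of alpha V, was at 7.002, 0.871 and 17.3 CPM in XX E11.5, again highest in replicate 3, and its E11.5 call (1.52, SE 0.57, adjusted p 0.0362) was lost without that library, at 0.42, or without any XY E11.5 library. From E12.5 on it was higher in XY, at 4.18 ± 0.726 CPM against 0.649 ± 0.192 at E12.5 (-2.69, SE 0.65, adjusted p 0.00118), but its E15.5 call (-1.96, SE 0.84, adjusted p 0.0437) was lost on leaving out any of 13 libraries. Itgb4, the partner of alpha 6 in hemidesmosomes, was higher in XX at E12.5 (1.897, SE 0.32, adjusted p 2.79e-05) and E13.5 (1.67, SE 0.35, adjusted p 2.51e-04), with 4.25 ± 0.653 and 1.14 ± 0.318 CPM at E12.5. Itgb6, an epithelial partner of alpha V, was called at no stage, with 0.926 and 1.34 CPM at E11.5 and at most 2 counts in any later library. All 52 counts of Itgb6 in XX E11.5 came from 1 library, replicate 1.

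**Figure D5:**
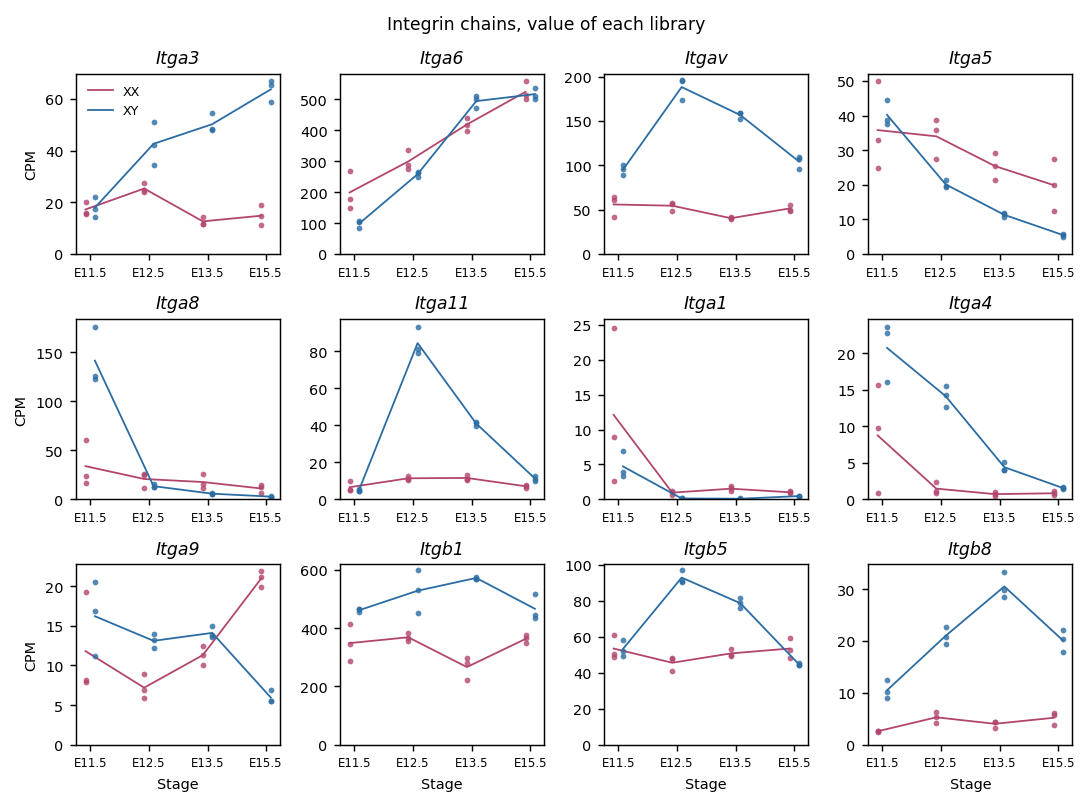
CPM of 12 integrin chains (y axes, each with its own scale) against embryonic day (x axes), with XX and XY libraries as points and group means joined by lines. Itgav, Itgb1 and Itgb8 lie higher in XY at all 4 stages, Itga6 rises in both sexes, Itga8 falls in XY after E11.5, and Itga11 peaks in XY at E12.5.

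Over time, most of these genes changed in the XY libraries in the first step. From E11.5 to E12.5, 29 of 38 members changed in XY, beside 51.9% of all genes tested, with 15 rising (beside 27.1%) and 14 falling (beside 24.8%). In XX, 16 changed, beside 34%, with 8 rising (16.7%) and 8 falling (17.3%). Members that rose in XY included Tinagl1, Itga11, Lama3, Dag1, Sparc, Nid1, Lamb2 and Itga3, and members that fell included Lama2, Frem1, Itga1, Fn1, Itga8, Nid2 and Npnt. Of these falling members, all but Itga8 had their XY E11.5 values in the order of the interstitial sums. Those sums fell in XY over the same step, from 1306 to 2184 CPM down to 138.1 to 163.3 CPM. The part of interstitial RNA in the XY changes of this step was not tested. From E12.5 to E13.5, 14 changed in XX, beside 31.7% of all genes, with 4 rising (14.2%) and 10 falling (17.4%), and 12 in XY, beside 16.6%, with 4 rising (8.02%) and 8 falling (8.62%). The XX losses included Lamb2, Agrn, Itga3 and Itga7. In the last step, 8 changed in XX, beside 25.6%, with 4 rising (12.8%) and 4 falling (12.8%), and 14 in XY, beside 21.3%, 10 of them falling (9.79%). Changes of at least 1 log2 unit were made by 9, 4 and 1 members in the XX steps, beside 13%, 8.67% and 7.88% of all genes. In the XY steps there were 20, 5 and 8 such members, beside 25.6%, 5.79% and 8.62%. The XX count of that last step was 3 without XX E13.5 replicate 1 and 5 without XX E15.5 replicate 3, and the XY count of the middle step was 6 and 7 without XY E13.5 replicates 2 and 3. Calls of steps lost on leaving out 1 library were 4 of 16, 5 of 14 and 6 of 8 in XX and 3 of 29, 7 of 12 and 4 of 14 in XY. Across all stages, 32 of 38 members changed in XX, beside 74% of all genes, and 36 in XY, beside 70.3%.

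At E11.5 the calls rested on more variable libraries than later ones. The median coefficient of variation of the 38 members within the XX E11.5 group was 39.7%, beside 23.7% for all genes tested, and replicate 3 was the highest of the 3 for 21 of the 40 members, or 52.5%, beside 31.3% of all genes. Of the 16 members called at E11.5, 5 (Lama5, Frem1, Itga1, Itgb1 and Itgb3) lost the call when 1 library was left out, beside 3 of 30 at E12.5, 2 of 32 at E13.5 and 5 of 25 at E15.5.

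Genes that work with these receptors and matrix proteins were counted from 4 further lists. Of 20 adaptors and kinases of integrin adhesions, 12, 13, 17 and 17 were called in order of stage, of which 8, 7, 8 and 7 were higher in XX. These are 60%, 65%, 85% and 85% of the list. The shares of this list and of the lists below stand beside 42%, 62.1%, 66.1% and 69.4% of all genes called. The 3 largest E15.5 differences of the list, named after their values were seen, were in Parvb, Tgfb1i1 and Bcar1. Parvb, the adaptor beta-parvin, was higher in XX at every stage, with 4.81, SE 0.22, adjusted p 5.77e-14 at E15.5 (27.6 ± 0.533 CPM in XX and 0.985 ± 0.411 in XY). Tgfb1i1, the adhesion adaptor Hic-5, was higher in XX with 4.38, SE 0.27, adjusted p 7.83e-12 at E15.5 (95.4 ± 8.56 and 4.63 ± 1.16 CPM). Bcar1, the adhesion scaffold p130Cas, was higher in XY with -4.15, SE 0.21, adjusted p 4.16e-13 at E15.5 (24.9 ± 6.95 and 440.0 ± 20.4 CPM) and uncalled at E11.5, at -0.35, SE 0.18, adjusted p 0.136.

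Of 18 partners of dystroglycan and enzymes that add its laminin-binding sugar, 9, 13, 13 and 13 were called (50%, 72.2%, 72.2% and 72.2%), of which 1, 4, 4 and 6 were higher in XX.

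Of 16 further basement membrane genes without collagens, 15 were tested, and 8, 11, 10 and 10 were called (53.3%, 73.3%, 66.7% and 66.7%), of which 4, 4, 3 and 4 were higher in XX. Hmcn1, the large matrix protein hemicentin, averaged 10.4 CPM in XX E11.5 and 12 in XY, later 52.4 ± 1.63 and 1.01 ± 0.121 at E15.5 (5.68, SE 0.31, adjusted p 1.20e-12). Megf6, a secreted protein with EGF repeats, reached 114.1 ± 13.6 CPM in XY E12.5 beside 6.53 ± 2.30 in XX (-4.12, SE 0.22, adjusted p 8.68e-13), and by E15.5 the difference was -0.17, SE 0.22, adjusted p 0.489. Hmcn1 and Megf6 were named after their values were seen. Of 8 integrin chains of leukocytes and platelets, 6 were tested and 3, 4, 2 and 3 called (50%, 66.7%, 33.3% and 50%), of which 3, 3, 1 and 1 were higher in XX. At E11.5 the 3 higher in XX included Itgam and Itgb2, at mean levels of 1.20 and 2.28 CPM against 0.0355 and 0.0609 CPM in XY, below the level of 3 counts, and the immune marker sum at that stage was 177.2 to 525.0 CPM in XX against at most 2.40 CPM in XY.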

How the data were processed

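Polyadenylated RNA of sorted cells was made into libraries with a low-input kit that amplifies cDNA, per the labels' protocols, and no molecular identifiers are described, so intervals and floors cover counting error only. The authors deposited estimated counts per gene and TPM for 24 libraries of 8 groups; the build was mm10, per the submitters' processing notes, and the aligner, the counting program and the use of strand are not given in the sources used here. Of the deposited count values, 17.5% were not whole, and all were rounded. The deposited TPM summed to between 0.939 and 0.962 of the full scale in each library, and were used as deposited. A field of XX E13.5 replicate 1 says E12.5 where its title and description say E13.5, which was followed.

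All genes were fitted together with edgeR 4.0.16 in R 4.3.3 (filterByExpr, which kept 16190 of 32040 genes, TMM scaling, robust quasi-likelihood test, 1 mean for each of 8 groups, 16 residual degrees of freedom), with Benjamini-Hochberg adjustment over all genes tested and calls at an adjusted p under 0.05. CPM used TMM-scaled library sizes. A floor of 3 counts corresponds to 0.0774 to 0.26 CPM. Where a group was near the floor, ratios of pooled counts with exact Poisson 95% intervals are given. Self-tests ran on simulated counts. Alternatives were other scaling, filters, tests (DESeq2 1.42.0, limma 3.58.1 on log2 of TPM plus 1 or 0.1), a threshold of 1 on the log2 difference, fits of fewer libraries, the replicate number as a block, and leaving out each library. Values are given in every library for the 3 members of each role with the smallest interaction p among those reaching 10 CPM in 1 group, and as means or ranges for the others. The members and all gene lists were chosen with earlier results of these data known. Of 84 same-numbered pairs of libraries, 6 had a correlation of deviations over 0.1, and the median was 0.002. Most of these pairs join different stages. Between XX and XY of the same stage, same-numbered pairs had 0.110, 0.087 and 0.298 at E11.5 and -0.043 to 0.063 at later stages. Pairs of unlike number at E11.5 had -0.270 to 0.138. These values do not settle whether libraries of the same stage were paired by number.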

Additional observations from a re-analysis of the deposited data

Results flagged for a closer look

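The XX minus XY difference of 34 of the 38 members tested changed between stages by the sex-by-stage test of edgeR, beside 70.1% of all genes tested, and each is given here with its adjusted p. Among the laminin chains these were Lama1 (1.07e-06), Lama2 (1.93e-07), Lama3 (5.17e-06), Lama4 (0.00186), Lama5 (0.00859), Lamb1 (1.56e-05), Lamb2 (6.60e-10), Lamc1 (2.02e-04) and Lamc3 (0.00147). Lama1, Lama2 and Lama5 were called in both directions over the 4 stages, whereas Lama4 was higher in XY at each of them and its difference narrowed from -3.94 to -2.79. Among the linkers, proteoglycans and matricellular proteins they were Nid1 (3.80e-04), Nid2 (0.00202), Hspg2 (6.94e-04), Agrn (5.23e-08), Sparc (4.85e-05) and Tinagl1 (2.35e-14). Tinagl1 and Sparc were higher in XY at every stage. Among the Fraser complex genes and nephronectin they were Npnt (2.14e-09), Frem1 (1.44e-05), Frem2 (5.95e-05) and Fras1 (0.00389), and of the remaining matrix and receptor genes Dag1 (6.57e-07).

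Among the integrin alpha chains the adjusted p were 8.12e-07 for Itga3, 8.61e-05 for Itga6, 0.00735 for Itga7, 1.74e-04 for Itga5, 1.13e-05 for Itga8, 3.68e-06 for Itgav, 0.0427 for Itga1, 7.89e-09 for Itga11 and 1.03e-05 for Itga9. Among the beta chains they were 0.00204 for Itgb1, 6.60e-04 for Itgb3, 0.00715 for Itgb4, 1.99e-07 for Itgb5 and 0.00457 for Itgb8. The 4 members whose difference between stages was not called were Lamb3 (0.203), Fn1 (0.364), Itga4 (0.0533) and Itgb6 (0.993).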

How the results depend on the processing

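The numbers of members called were recomputed under 36 alternatives, 24 of which left out 1 library, and 2 of the 36 (leaving out both E11.5 libraries highest in interstitial markers, and all 6 E11.5 libraries) were chosen after seeing the data. A fit of only the libraries compared called 10 members in XX minus XY at E11.5, 6 in the first and 13 in the last XX step, and 22 and 24 in the XY steps from E12.5 and from E13.5. Without the 6 E11.5 libraries those XY steps gave 22 and 23. With a log2 difference of at least 1, the 3 XX steps gave 9, 4 and 1, the later XY steps 5 and 8, and the XX stage test 20. limma on log2(TPM + 0.1) gave 7 for XY from E12.5 to E13.5, and limma on log2(TPM + 1) without a filter gave 6 and 6 for the later XY steps. The causes of these shifts were not tested. Leaving out 1 library gave 13 to 21, 27 to 32, 31 to 33 and 21 to 27 members in XX minus XY by stage, 14 to 19, 10 to 19 and 3 to 11 in the XX steps, 26 to 29, 6 to 16 and 11 to 20 in the XY steps, 30 to 32 and 34 to 37 in the stage tests of XX and XY, and 33 to 35 in the interaction. Of 104 log2 differences of 26 members, 77 were called: none of these changed sign under any alternative, and 16 lost the call under 1 or more. Differences that changed sign were uncalled: Frem2 at E11.5 (-0.83 to 0.25 on leaving out 1 library, and 0.14, 0.25 and 0.05 without XX replicate 2, XX replicate 3 or XY replicate 3, and 0.36 without both libraries highest in interstitial markers), Dag1 at E11.5 (-0.32 to 0.13, and 0.04 without XY replicate 2), Fn1 at E11.5 (-0.55 and -0.60 in limma on TPM with 1 or 0.1 added, -0.55 without a filter, -0.65 to 1.04 on leaving out 1 library, the lowest without XX replicate 3, and -0.04 without both libraries), Itga3 at E11.5 (-0.19 to 0.11), Itga6 at E15.5 (-0.03) and Itga5 at E11.5 (-0.49 to 0.03). The replicate block gave 16, 30, 32 and 26 members in XX minus XY by stage, 15, 14 and 8 in the XX steps, 29, 13 and 16 in the XY steps, and 32, 36 and 34 in the stage tests and the interaction. The labels tie the replicates by number only, and 12 of 24 libraries had their closest library of another group in one of their own number. DESeq2 size factors moved the median difference of all genes by at most 0.06. Genes under about 1 CPM, such as Itgb6 or Lamc3, rest on few counts and give wide intervals.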

Other observations

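The deposited counts and the deposited TPM gave different XX to XY ratios for several genes of the list. For Lama5 the ratio of group means was 0.532 in CPM and 1.41 in TPM at E15.5, after 0.777 and 1.67 at E13.5. For Hspg2 it was 0.895 and 1.54 at E15.5, after 1.46 and 2.33 at E13.5. For Lama1 at E13.5 it was 0.517 and 0.799, and for Nid2 at E15.5 it was 0.810 and 1.16. For Fras1 at E15.5 it was 1.15 in CPM and 0.794 in TPM, the reverse order of the genes named before it. Lama5 at E13.5 and E15.5, and Hspg2, Nid2 and Fras1 at E15.5, thus lay on opposite sides of 1 on the 2 scales. Ratios also differed where both lay below 1, as at E11.5 for Itgav (0.588 in CPM and 0.814 in TPM) and Sparc (0.443 and 0.348). The source of this disagreement between the tables was not tested.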
